A study of Mus musculus with 9 samples.

Results

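The ephrins, Eph receptors, semaphorins and plexins were followed in 66cl4 cells, a mouse mammary carcinoma line described as triple negative, after knockdown of Eya3. Members were the genes of the deposited count table whose symbols name an ephrin (Efna, Efnb), an Eph receptor (Epha, Ephb), a semaphorin (Sema) or a plexin (Plxn) and which had at least 30 counts summed over the 9 libraries. This gave 40 members of 55418 symbols: 5 A-type and 3 B-type ephrins, 4 EphA and 4 EphB receptors, 17 semaphorins and 7 plexins. The table held 51 genes of these families, of which 11 fell below the count minimum, and Sema5b had no counts at all. The member nearest to the minimum was Efna2 with 34 counts, and the nearest gene outside it was Sema4d with 29 counts.

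The libraries were made from cultured cells that carried a hairpin named for Eya3 (shEya3_KD1), another hairpin named for Eya3 (shEya3_KD2) or a scrambled hairpin (SCR), with 3 libraries in each group. All 3 groups were transduced with a hairpin vector and kept under puromycin, so no group shows untransduced 66cl4 cells. Short hairpin RNAs are trimmed inside cells to small interfering RNAs, which reduce transcripts of matching sequence. The sources used here give neither the hairpin sequences nor whether each line is a clone or a pool. The replicates are called biological without a description of separate cultures, so p-values measure the spread between these libraries.

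Eph receptors are receptor tyrosine kinases that are switched on by ephrins on a neighbouring cell. Ephrins of the A type are held in the membrane by a lipid anchor and bind mainly EphA receptors, while ephrins of the B type span the membrane, bind mainly EphB receptors and can signal back into the cell that carries them. Semaphorins are secreted or membrane-bound ligands, and plexins are their main receptors, which act on the cytoskeleton. The class 3 semaphorins are secreted and mostly need a neuropilin as co-receptor. These families steer axons and vessels in development, and in carcinoma cells they are known for roles in adhesion, migration and invasion.

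Library totals ranged from 27758862 to 52691960 counts, and 15914 genes had enough counts to be tested. Eya3, a transcriptional co-activator and phosphatase, averaged 23.1 ± 1.71 CPM in shEya3_KD1, 37.5 ± 3.02 CPM in shEya3_KD2 and 72.9 ± 5.56 CPM in SCR (SD, n = 3 each), where CPM is a count divided by the scaled library total in units of 1e6 reads. Eya3 was therefore higher in shEya3_KD2 than in shEya3_KD1 by 0.70 ± 0.08 on the log2 scale (SE, edgeR adjusted p = 6.98e-06). Of the labelled cell type's markers, Krt8 and Vim were abundant, Cdh1 had 36 counts over the 9 libraries and Epcam had none. Krt8 rose by 0.95 ± 0.07 on the log2 scale with shEya3_KD1 and by 0.22 ± 0.07 with shEya3_KD2, and Vim by 0.60 ± 0.07 and 0.25 ± 0.07. Krt18, the keratin that pairs with Krt8, had 112 counts in shEya3_KD1, 308 in shEya3_KD2 and 4 in SCR, and rose with both hairpins. Of the receptors whose lack gives triple negative tumours their name, Pgr had no counts, while Esr1 and Erbb2 were called higher with both hairpins. Esr1 had 14.1 to 15.8 CPM in shEya3_KD1, 12.2 to 21.3 CPM in shEya3_KD2 and 6.85 to 7.43 CPM in SCR. Erbb2 had 61.5 to 73.0 CPM in shEya3_KD1, 62.3 to 69.9 CPM in shEya3_KD2 and 52.0 to 55.8 CPM in SCR. Of the macrophage markers, C1qa and C1qc had no counts, and Lyz2, Cd14 and Ptprc fell with both hairpins. C1qb rose with both, on 32 counts in shEya3_KD1, 44 in shEya3_KD2 and 4 in SCR. Cd68 fell with shEya3_KD1 and rose with shEya3_KD2. Of the fibroblast markers, Col1a1 fell with both hairpins, Pdgfrb rose with both, and Col1a2 and Pdgfra were called higher with shEya3_KD1 alone. The 10 macrophage markers summed to 34.6 to 39.3 CPM in shEya3_KD1, 32.8 to 39.5 CPM in shEya3_KD2 and 75.6 to 78.6 CPM in SCR, and the 7 fibroblast markers to 53.7 to 58.7 CPM in shEya3_KD1, 30.7 to 44.8 CPM in shEya3_KD2 and 28.8 to 35.8 CPM in SCR. The 6 endothelial markers summed to 2.25 to 3.23 CPM in shEya3_KD1, 1.89 to 2.57 CPM in shEya3_KD2 and 4.12 to 4.88 CPM in SCR. Within them Emcn had 264 counts in shEya3_KD1, 0 in shEya3_KD2 and 2 in SCR and rose with shEya3_KD1, while Cdh5 and Tie1 fell with both hairpins. The sums for the markers of lymphocytes and of neurons and glia stayed at or below 1.63 CPM. The part of these markers in the results was not tested, and in bulk libraries fewer cells of a type and less RNA per cell cannot be told apart.

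Levels per length, in CPM per kilobase of exon, placed Epha2 above every other member in all 3 groups. Epha2, a receptor known for its high levels in carcinoma lines, had 115 ± 2.15 CPM per kilobase in shEya3_KD1, 108 ± 7.54 in shEya3_KD2 and 133 ± 9.91 in SCR (SD, n = 3 each). The next member was Efnb2 in shEya3_KD1 (27.7 ± 1.50 CPM per kilobase), Plxnb2 in shEya3_KD2 (37.0 ± 3.80) and Plxnb2 in SCR (24.4 ± 1.98). In SCR the levels of Sema3e, Efnb2, Efna1, Ephb4 and Plxna1 lay between 13.0 and 11.4 CPM per kilobase, and each overlapped its neighbour in that order over the libraries. Epha2 made up 99.6%, 99.8% and 99.5% of the summed level of the 4 EphA receptors in shEya3_KD1, shEya3_KD2 and SCR. On the CPM scale, not corrected for length, the median member tested had 7.39 CPM and the median of all genes tested was 17.6 CPM.

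**Figure D1:**
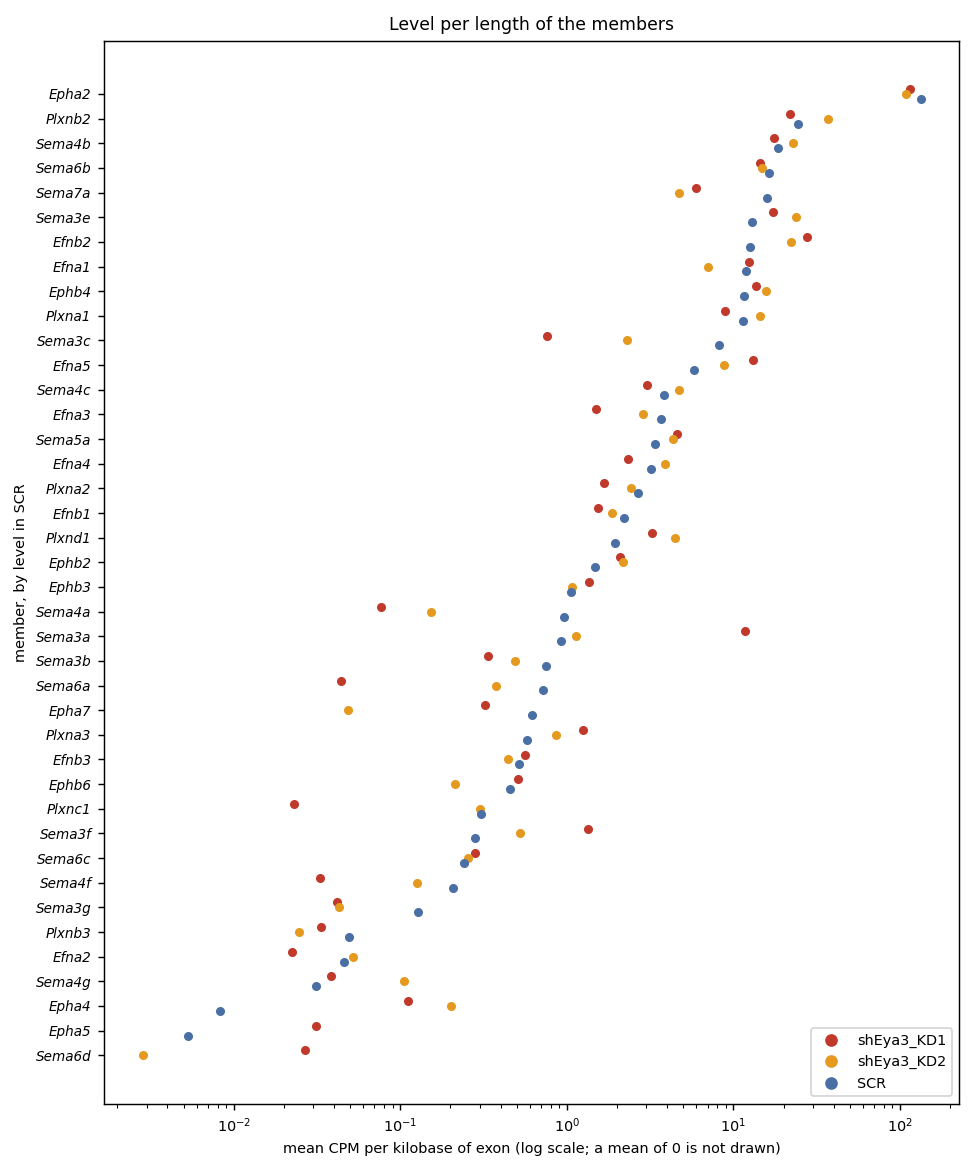
Mean level of each member in CPM per kilobase of exon (log scale) in shEya3_KD1, shEya3_KD2 and SCR, with members ordered by their SCR level. Epha2 leads in all 3 groups at 115, 108 and 133 CPM per kilobase, and Sema3a, at 11.7 CPM per kilobase in shEya3_KD1, lies far to the right of its levels of 1.13 in shEya3_KD2 and 0.924 in SCR.

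Of the 40 members 38 could be tested, and a majority differed between groups. The counts of called members in each of the 3 comparisons include Epha5. It reached the count minimum through shEya3_KD1 alone, which held 62 of its 75 counts. In shEya3_KD1 against SCR 13 members rose, 15 fell and 10 were not called at an adjusted p of 0.05, which is 73.7% called, beside 50.3% of all 15914 genes tested (24.1% higher and 26.2% lower). Past 2-fold, 7 of the members rose and 9 fell, 16 in all, beside 5.17% and 9.53% and together 14.7% of all genes. The libraries of the groups did not overlap for 13 members that were higher and 15 that were lower in shEya3_KD1, beside 28.9% and 30.4% of all genes. In shEya3_KD2 against SCR 15 rose, 13 fell and 10 were not called, again 73.7%, beside 45.3% of all genes (23% higher and 22.3% lower). Past 2-fold, 3 rose and 7 fell with that hairpin, 10 in all, beside 3.37% and 5.93% and together 9.3% of all genes, and 13 members lay above SCR without overlap and 13 below, beside 27.4% and 27%.

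The members did not move one way. Their median log2 fold change was -0.12 in shEya3_KD1 against SCR and -0.01 in shEya3_KD2 against SCR, next to 0.01 and -0.00 over all genes, whereas the median size of the change regardless of sign was 0.62 and 0.59, next to 0.30 and 0.27. With Epha5, which had no counts in shEya3_KD2, placed at its bound, the medians were -0.12 and -0.01. Both comparisons use the same SCR libraries, so their values are given side by side below and are not independent. The 2 members not tested were Efna2, with 6 counts in shEya3_KD1, 14 in shEya3_KD2 and 14 in SCR, and Sema6d, with 33 in shEya3_KD1, 4 in shEya3_KD2 and 0 in SCR. For Sema6d, a transmembrane semaphorin that binds plexin-A receptors, the level was at least 13.4-fold higher in shEya3_KD1 than in SCR when SCR is set at a floor of 3 counts over the group. As 33 of its 37 counts lie in shEya3_KD1, Sema6d reached the count minimum through that group alone, and this fold is a description.

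**Figure D2:**
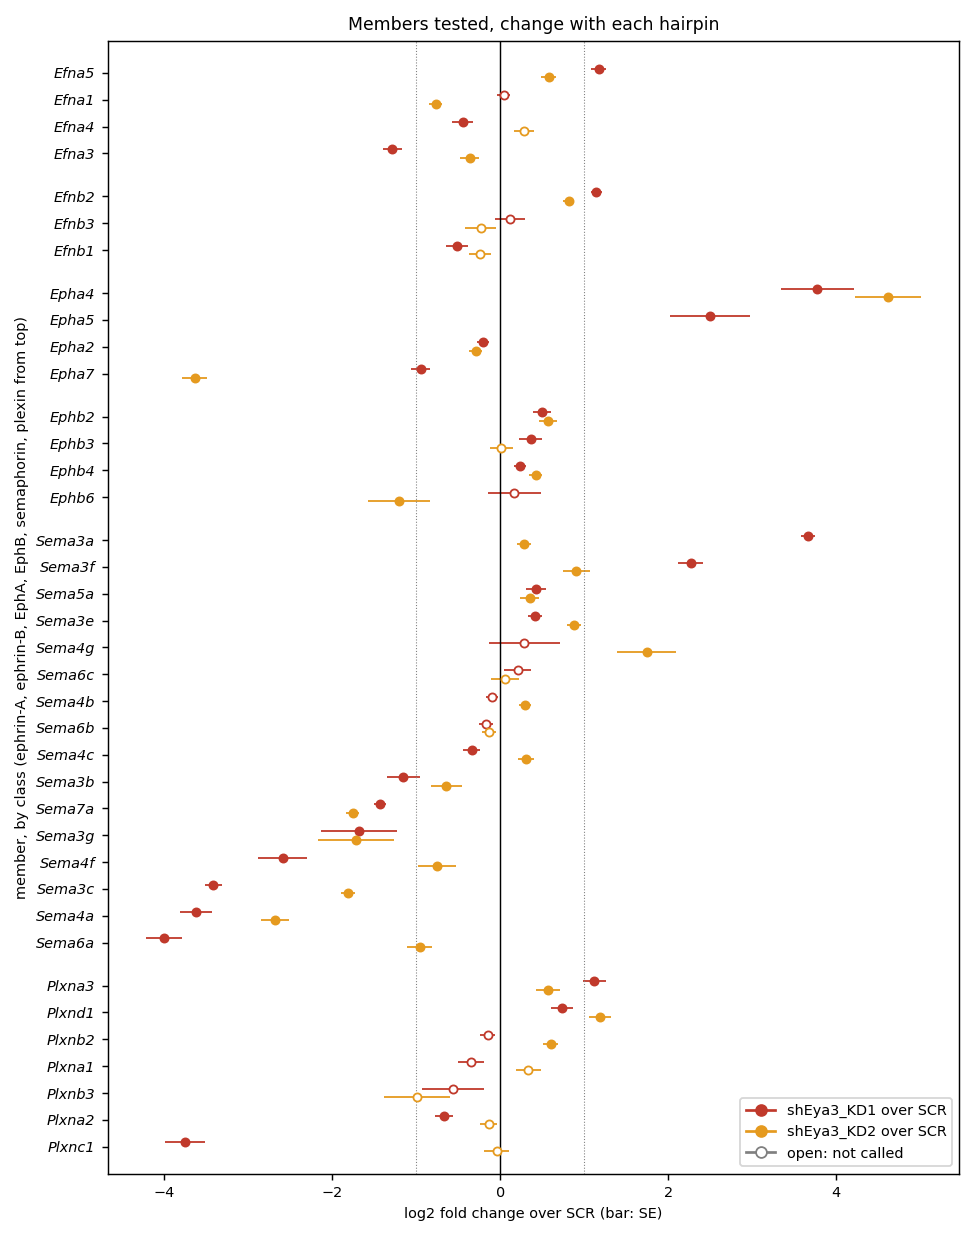
Log2 fold change of each member tested, shEya3_KD1 over SCR and shEya3_KD2 over SCR (bars: SE; filled points: called at an adjusted p of 0.05; dotted lines: 2-fold), by class. Points lie on both sides of 0 in each class. Epha5 has no point for shEya3_KD2, where it had no counts.

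Upstream sequence is shown for 4 members that carry the main contrasts described below: Sema3a, which had the largest rise with shEya3_KD1 among members above 1 CPM in SCR, Efnb2, which rose with both hairpins, Sema7a, which fell with both, and Plxnc1, which fell with shEya3_KD1. Each is the 250 bases before a RefSeq transcript start (GRCm38.p6, the mm10 build), read 5′ to 3′ on the gene's strand, with CpG dinucleotides in capitals. In genome coordinates they are chr5:13396534-13396783 (plus strand, Sema3a), chr8:8661243-8661492 (minus strand, Efnb2), chr9:57939862-57940111 (plus strand, Sema7a) and chr10:94944846-94945095 (minus strand, Plxnc1).
Sema3a: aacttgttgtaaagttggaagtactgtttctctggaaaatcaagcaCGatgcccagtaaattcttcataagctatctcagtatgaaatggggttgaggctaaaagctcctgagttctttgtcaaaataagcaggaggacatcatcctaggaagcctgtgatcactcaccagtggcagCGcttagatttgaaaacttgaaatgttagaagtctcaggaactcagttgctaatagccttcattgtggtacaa
Efnb2: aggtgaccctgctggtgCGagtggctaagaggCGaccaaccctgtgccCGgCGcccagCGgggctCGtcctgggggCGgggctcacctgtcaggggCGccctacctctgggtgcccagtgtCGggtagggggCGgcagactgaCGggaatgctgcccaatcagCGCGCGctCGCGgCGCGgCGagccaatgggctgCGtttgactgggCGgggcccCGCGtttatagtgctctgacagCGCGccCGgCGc
Sema7a: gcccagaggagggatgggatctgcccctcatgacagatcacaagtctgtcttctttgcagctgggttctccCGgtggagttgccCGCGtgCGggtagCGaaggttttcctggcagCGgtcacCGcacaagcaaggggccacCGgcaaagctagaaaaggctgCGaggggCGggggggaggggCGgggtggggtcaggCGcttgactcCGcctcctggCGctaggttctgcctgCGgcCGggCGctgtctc
Plxnc1: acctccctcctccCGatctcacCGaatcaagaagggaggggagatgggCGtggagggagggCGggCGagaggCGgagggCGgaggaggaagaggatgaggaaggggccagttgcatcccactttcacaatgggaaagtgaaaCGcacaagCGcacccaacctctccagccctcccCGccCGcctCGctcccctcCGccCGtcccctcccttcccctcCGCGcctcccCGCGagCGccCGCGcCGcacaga

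The Sema3a stretch holds 2 CpG dinucleotides at 40.8% G and C, the Efnb2 stretch 27 at 72%, the Sema7a stretch 17 at 66.4% and the Plxnc1 stretch 22 at 68.8%. Over 13008 RefSeq stretches of 10191 tested genes the median was 15 CpG dinucleotides, 8.35% held 2 or fewer and 44.5% held 17 or more. Over 47 stretches of 35 members the median was 16, with 6.38% at 2 or fewer. The Sema3a stretch belongs to a start inside the gene, which begins at position 13125414 of chromosome 5 in the GENCODE annotation, and which start the cells use cannot be read from gene counts. In windows of 300 bases (250 before to 50 after the start), the GC box GGGCGG on either strand was present in 80.9% of 47 member windows and 60.1% of the 13008 windows of tested genes, and the Six-type motif TCAGGTT in 4.26% of member windows, those of Plxnb2 and Sema4b, and 3.42% of those of tested genes. Over all 32851 windows, which include those of genes not tested, the shares of these motifs were 35.7% and 4.07%. The median number of CpG dinucleotides was 22 in member windows against 7 in all windows. Over the 250-base stretches, members (16) and tested genes (15) lay close. The kB motif, also searched for, was in 12.8% of member windows and 5.13% of those of tested genes. AP-1 motifs were in 4.26% and 5.54%, and TATA motifs in 2.13% and 7.58%. A match of letters is a description of the window and not a binding site.

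Among the ephrins, the ligands of the Eph receptors, Efnb2 and Efna5 rose with both hairpins, and the neighbours Efna1, Efna3 and Efna4 each had a course of their own. Efnb2, a B-type ephrin known for its role in vessel formation, had 198, 193 and 178 CPM in shEya3_KD1, 155, 157 and 141 CPM in shEya3_KD2 and 84.7, 88.3 and 84.2 CPM in SCR. The 3 groups did not overlap, with shEya3_KD1 the highest and SCR the lowest. Efnb2 was 2.21-fold higher in shEya3_KD1 than in SCR (log2 1.15 ± 0.07, SE, edgeR adjusted p = 2.04e-09) and 1.76-fold higher in shEya3_KD2 than in SCR (0.82 ± 0.07, edgeR adjusted p = 2.35e-07). With Efnb2 as its largest part, the summed level of the B-type ephrins was 29.8 ± 1.79 CPM per kilobase in shEya3_KD1, 24.4 ± 1.42 in shEya3_KD2 and 15.2 ± 0.771 in SCR (SD, n = 3 each). Efnb1 fell with shEya3_KD1 by 0.51 ± 0.14 on the log2 scale (edgeR adjusted p = 0.00513) and was not called with shEya3_KD2, where its estimate was -0.24 with an approximate 95% interval of -0.50 to 0.02. Efnb3 was called in no comparison, with 1.33 to 2.04 CPM over the 9 libraries.

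Efna5, an A-type ephrin first known as a repulsive cue for growing axons, had 58.97, 49.8 and 49.97 CPM in shEya3_KD1, 35.0, 38.8 and 31.8 CPM in shEya3_KD2 and 22.1, 25.0 and 23.5 CPM in SCR. All libraries of both hairpins lay above those of SCR, and shEya3_KD1 lay above shEya3_KD2. The log2 fold change was 1.17 ± 0.09 in shEya3_KD1 against SCR (edgeR adjusted p = 3.92e-08) and 0.58 ± 0.09 in shEya3_KD2 against SCR (edgeR adjusted p = 0.000109). Efna5 held 44.7% of the summed A-type ephrin level per length in shEya3_KD1, 38.7% in shEya3_KD2 and 23.6% in SCR, while Efna1 held 42.2% in shEya3_KD1, 31.2% in shEya3_KD2 and 48.4% in SCR.

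Efna1, Efna3 and Efna4 lie next to each other on the minus strand of chromosome 3 (mm10 positions 89271733 to 89338028), with no other protein-coding gene between them. Efna1, the A-type ephrin that binds Epha2, had 21.9, 22.9 and 22.9 CPM in shEya3_KD1, 12.5, 12.5 and 13.6 CPM in shEya3_KD2 and 22.5, 23.1 and 20.2 CPM in SCR. Only the shEya3_KD2 libraries stood apart, at 1.71-fold below SCR (log2 -0.77 ± 0.08, edgeR adjusted p = 1.69e-06), and in shEya3_KD1 the difference from SCR had an approximate 95% interval of -0.10 to 0.19. Efna3 had 3.996, 4.03 and 2.94 CPM in shEya3_KD1, 6.88, 6.72 and 7.20 CPM in shEya3_KD2 and 9.21, 9.26 and 8.34 CPM in SCR. Its groups did not overlap, and it fell by 1.28 ± 0.12 on the log2 scale with shEya3_KD1 (edgeR adjusted p = 2.77e-07) and by 0.37 ± 0.11 with shEya3_KD2 (edgeR adjusted p = 0.0136). Efna4 fell with shEya3_KD1 by 0.44 ± 0.12 (edgeR adjusted p = 0.00775) and was not called with shEya3_KD2 (0.29 ± 0.12, edgeR adjusted p = 0.0629). It was called higher there with the replicate block (0.29, edgeR adjusted p = 0.0387) and without shEya3_KD2 replicate 3 (0.37, edgeR adjusted p = 0.0217). The exons of Efna3 overlap those of Gm15998 on the opposite strand, whose counts came to 32.3% of those of Efna3, and those of Efna4 overlap a gene with 6.03% of its counts. The sources used here do not give the strand setting of the counting, so reads in these overlaps may be shared.

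Among the EphA receptors the abundant Epha2 fell slightly, while the scarce Epha4, Epha5 and Epha7 changed by several fold in different directions. Epha2 had 549, 530.4 and 534 CPM in shEya3_KD1, 524, 530.1 and 466 CPM in shEya3_KD2 and 574, 667 and 621 CPM in SCR. All libraries of both hairpins lay below SCR. Those of shEya3_KD2 lay just below those of shEya3_KD1, and that difference was not called. Epha2 fell by 0.29 ± 0.07 on the log2 scale with shEya3_KD2 (edgeR adjusted p = 0.00477). With shEya3_KD1 it fell by 0.21 ± 0.07 (edgeR adjusted p = 0.0295), a call that was lost when shEya3_KD1 replicate 2 or 3 or SCR replicate 2 or 3 was left out (-0.22 to -0.16, edgeR adjusted p 0.0592 to 0.118).

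Epha7, a receptor known from the developing nervous system, had 3.10, 3.02 and 3.40 CPM in shEya3_KD1, 0.468, 0.406 and 0.567 CPM in shEya3_KD2 and 5.98, 6.12 and 6.23 CPM in SCR. The groups were well apart, with shEya3_KD2 the lowest. Epha7 was 12.7-fold lower in shEya3_KD2 than in SCR (log2 -3.64 ± 0.15, edgeR adjusted p = 1.79e-10) and 1.93-fold lower in shEya3_KD1 than in SCR (-0.95 ± 0.11, edgeR adjusted p = 4.91e-06). Epha4, which binds ephrins of both types, moved the other way. It had 0.824, 1.05 and 0.807 CPM in shEya3_KD1, 1.58, 1.81 and 1.49 CPM in shEya3_KD2 and 0, 0.0787 and 0.120 CPM in SCR, which are 106, 193 and 9 counts over each group. Every hairpin library lay above every SCR library, and the rise was 3.77 ± 0.43 on the log2 scale with shEya3_KD1 (edgeR adjusted p = 3.5e-06) and 4.61 ± 0.39 with shEya3_KD2 (edgeR adjusted p = 3.34e-07). The SCR level of Epha4 is close to the limit of detection, so the size of these folds is uncertain. Epha5 had 62 counts over the 3 libraries of shEya3_KD1, 0 over those of shEya3_KD2 and 13 over those of SCR. As 62 of its 75 counts lie in shEya3_KD1, Epha5 reached the count minimum through that group alone. It rose with shEya3_KD1 by 2.50 ± 0.48 on the log2 scale (edgeR adjusted p = 0.000709), a value that the choice of members bears on. With shEya3_KD2, set at the floor of 3 counts over the group, it was at least 3.66-fold lower than in SCR, and that call was lost without SCR replicate 1 (edgeR adjusted p = 0.0543).

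The EphB receptors changed by less, with the exception of Ephb6. Ephb4, the receptor of Efnb2 and the most abundant EphB gene per length, had 66.8, 64.3 and 59.4 CPM in shEya3_KD1, 72.4, 76.9 and 67.8 CPM in shEya3_KD2 and 49.7, 57.3 and 55.0 CPM in SCR. The libraries of both hairpins lay above those of SCR and overlapped each other in no library. Ephb4 rose by 0.42 ± 0.08 on the log2 scale with shEya3_KD2 (edgeR adjusted p = 0.000347) and by 0.23 ± 0.08 with shEya3_KD1 (edgeR adjusted p = 0.0171), the second of which was lost without shEya3_KD1 replicate 1 or 2 or SCR replicate 1 (0.18 to 0.22). Ephb2, which guides axons and cell positioning in the gut, rose with shEya3_KD1 (0.50 ± 0.10) and with shEya3_KD2 (0.57 ± 0.10), at 22.4 to 31.0 CPM and 25.3 to 29.4 CPM against 17.6 to 19.2 CPM in SCR. Ephb3 was called with shEya3_KD1 (0.36 ± 0.13, edgeR adjusted p = 0.0366), and the call was lost without shEya3_KD1 replicate 1, which brought it to 0.22, or without any single SCR library. Ephb6, a receptor without kinase activity, had 2.52, 1.73 and 1.47 CPM in shEya3_KD1, 0.410, 1.33 and 0.685 CPM in shEya3_KD2 and 1.17, 2.06 and 1.90 CPM in SCR. The shEya3_KD2 and SCR libraries overlapped, and the fall of 1.21 ± 0.37 on the log2 scale (edgeR adjusted p = 0.0191) was lost without shEya3_KD2 replicate 1 or 3 or SCR replicate 2 or 3 (-1.16 to -0.83).

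**Figure D3:**
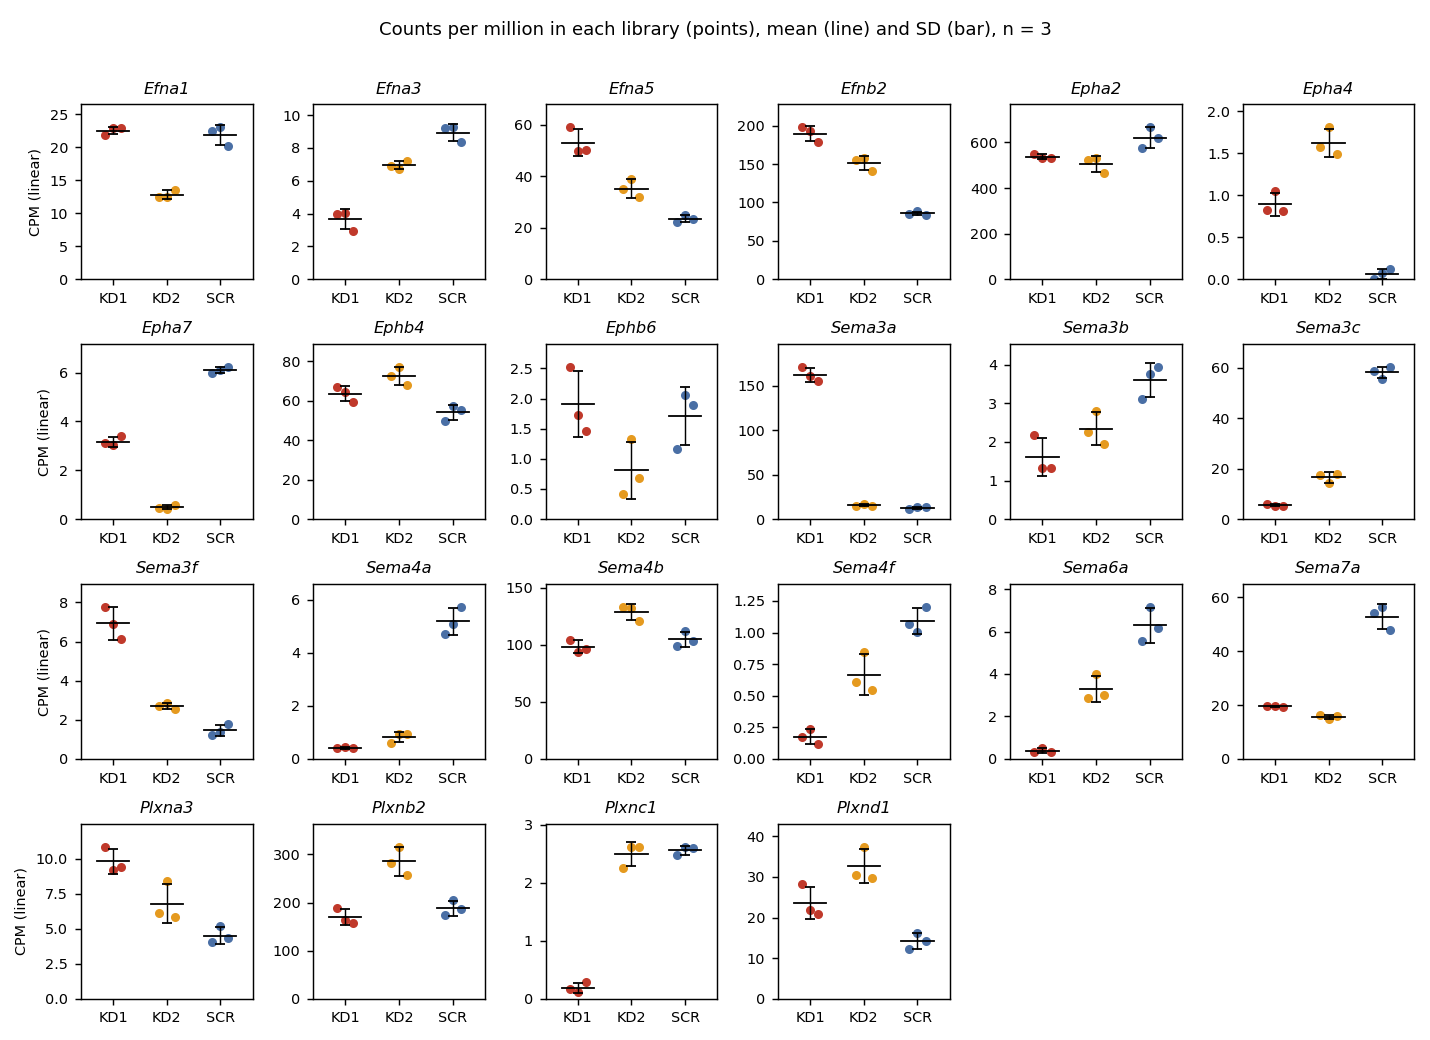
CPM in each library (points) with mean and SD for 22 members, in shEya3_KD1, shEya3_KD2 and SCR, each panel on its own linear axis from 0. Sema3a is high in shEya3_KD1 alone (155 to 171 CPM), Plxnc1 is low in shEya3_KD1 alone (0.117 to 0.288 CPM), and Sema3c, Sema4a and Sema7a are highest in SCR.

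The class 3 semaphorins, the secreted ligands, changed most in make-up. Sema3a, which acts through Nrp1 and plexin-A receptors to repel axons and endothelial cells, had 171, 160.4 and 155 CPM in shEya3_KD1, 14.5, 17.3 and 15.2 CPM in shEya3_KD2 and 11.7, 13.6 and 13.1 CPM in SCR. The shEya3_KD1 libraries lay far above the rest, and those of shEya3_KD2 lay just above SCR without overlap. Sema3a was 12.7-fold higher in shEya3_KD1 than in SCR (log2 3.66 ± 0.09, edgeR adjusted p = 8.27e-14). In shEya3_KD2 it was 1.22-fold higher than in SCR (0.28 ± 0.08, edgeR adjusted p = 0.013), which was lost without SCR replicate 1 (0.22, edgeR adjusted p = 0.0707).

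Sema3c, a class 3 semaphorin known to promote migration of some carcinoma cells, fell with both hairpins. It had 5.97, 5.17 and 5.25 CPM in shEya3_KD1, 17.5, 14.2 and 17.8 CPM in shEya3_KD2 and 58.6, 55.7 and 60.3 CPM in SCR. The groups were far apart, with SCR the highest. Sema3c was 10.7-fold lower in shEya3_KD1 than in SCR (log2 -3.41 ± 0.10, edgeR adjusted p = 6.11e-13) and 3.53-fold lower in shEya3_KD2 than in SCR (-1.81 ± 0.09, edgeR adjusted p = 9.45e-10). Sema3e, which binds Plxnd1 without a neuropilin, had 169, 163 and 149.7 CPM in shEya3_KD1, 217, 249 and 197 CPM in shEya3_KD2 and 118, 123 and 121 CPM in SCR. The groups did not overlap, and Sema3e rose by 0.42 ± 0.08 on the log2 scale with shEya3_KD1 (edgeR adjusted p = 0.000558) and by 0.88 ± 0.08 with shEya3_KD2 (edgeR adjusted p = 8.78e-07).

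Sema3f, which acts mainly through Nrp2, had 7.77, 6.90 and 6.11 CPM in shEya3_KD1, 2.69, 2.88 and 2.57 CPM in shEya3_KD2 and 1.21, 1.38 and 1.78 CPM in SCR. The groups did not overlap, and it was 4.76-fold higher in shEya3_KD1 than in SCR (log2 2.26 ± 0.15, edgeR adjusted p = 7.02e-09) and 1.87-fold higher in shEya3_KD2 than in SCR (0.90 ± 0.16, edgeR adjusted p = 0.000371). Its neighbour Sema3b, 72271 bases away on chromosome 9 with 3 other protein-coding genes between them, went the other way. Sema3b had 2.17, 1.33 and 1.33 CPM in shEya3_KD1, 2.26, 2.81 and 1.96 CPM in shEya3_KD2 and 3.11, 3.76 and 3.94 CPM in SCR. Both hairpins lay below SCR and overlapped each other, with a fall of 1.15 ± 0.19 on the log2 scale in shEya3_KD1 (edgeR adjusted p = 0.000148) and of 0.64 ± 0.19 in shEya3_KD2 (edgeR adjusted p = 0.0112). Sema3g was scarce and fell with shEya3_KD1 (-1.68 ± 0.45) and with shEya3_KD2 (-1.71 ± 0.45), on 21, 21 and 84 counts over shEya3_KD1, shEya3_KD2 and SCR.

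The summed level of the 6 class 3 members was 31.5 ± 1.90 CPM per kilobase in shEya3_KD1, 28.3 ± 2.81 in shEya3_KD2 and 23.2 ± 0.466 in SCR (SD, n = 3 each). Sema3a made up 37.2% of it in shEya3_KD1, 3.997% in shEya3_KD2 and 3.98% in SCR. Sema3c made up 2.43% in shEya3_KD1, 8.27% in shEya3_KD2 and 35.1% in SCR, and Sema3e 55.0% in shEya3_KD1, 84.0% in shEya3_KD2 and 55.9% in SCR. In these shares Sema3e led in every group, and the gene next to it was Sema3a in shEya3_KD1 and Sema3c in SCR. Sema3a and Sema3e are neighbours on chromosome 5, 422711 bases apart with 1 other protein-coding gene between them. The neuropilins were read beside these ligands, although they are no members and were chosen after their values had been seen. Nrp1 rose with shEya3_KD1 (0.48 ± 0.09, 27.8 to 30.9 CPM against 19.9 to 22.2 CPM in SCR) and was not called with shEya3_KD2 (0.09 ± 0.09). Nrp2 was not called with shEya3_KD1 (0.17 ± 0.09) and rose with shEya3_KD2 (0.37 ± 0.09, 464 to 577 CPM against 379 to 432 CPM in SCR).

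**Figure D4:**
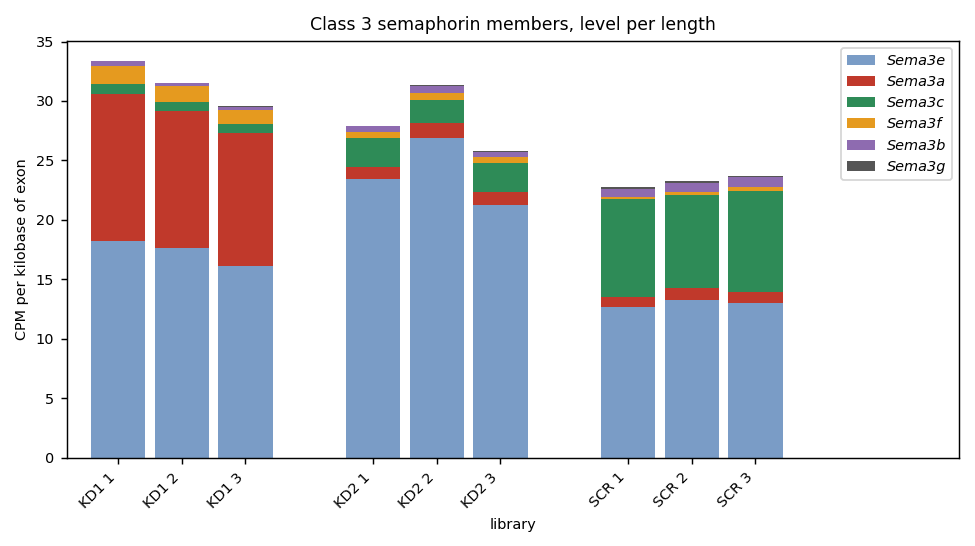
Stacked levels of the 6 class 3 semaphorin members in CPM per kilobase of exon in each library of shEya3_KD1 (KD1), shEya3_KD2 (KD2) and SCR. Sema3e is the largest part in every library, Sema3a is 37.2% of the bar on average in shEya3_KD1, and Sema3c is 35.1% on average in SCR.

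The class 4 semaphorins are membrane-bound ligands. Sema4a, known for its action on immune and endothelial cells, had 0.400, 0.445 and 0.403 CPM in shEya3_KD1, 0.605, 0.923 and 0.944 CPM in shEya3_KD2 and 4.71, 5.09 and 5.72 CPM in SCR. The SCR libraries lay well above both hairpins. Sema4a was 12.4-fold lower in shEya3_KD1 than in SCR (log2 -3.62 ± 0.19, edgeR adjusted p = 5.8e-10) and 6.28-fold lower in shEya3_KD2 than in SCR (-2.68 ± 0.17, edgeR adjusted p = 1.78e-08). Sema4f had 0.175, 0.234 and 0.115 CPM in shEya3_KD1, 0.605, 0.850 and 0.543 CPM in shEya3_KD2 and 1.07, 1.00 and 1.20 CPM in SCR. The groups did not overlap, and it fell by 2.59 ± 0.29 on the log2 scale with shEya3_KD1 (edgeR adjusted p = 2.74e-06) and by 0.75 ± 0.23 with shEya3_KD2 (edgeR adjusted p = 0.0144), the second of which was lost without shEya3_KD2 replicate 1 or 3 or SCR replicate 3 (-0.69 to -0.63).

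Sema4b, first among the semaphorins per length in SCR and level with Sema3e in shEya3_KD1, had 105, 93.8 and 96.8 CPM in shEya3_KD1, 133, 133 and 121 CPM in shEya3_KD2 and 99.1, 112 and 103 CPM in SCR. The libraries of shEya3_KD1 and SCR overlapped, and those of shEya3_KD2 lay above both, by 0.30 ± 0.07 on the log2 scale against SCR (edgeR adjusted p = 0.00324). Sema4c, a ligand of Plxnb2, fell with shEya3_KD1 (-0.34 ± 0.10, edgeR adjusted p = 0.00846) and rose with shEya3_KD2 (0.31 ± 0.09, edgeR adjusted p = 0.0165). In that comparison the libraries overlapped, at 19.1 to 23.6 CPM in shEya3_KD2 and 16.7 to 19.2 CPM in SCR. The rise was lost without shEya3_KD2 replicate 1 or SCR replicate 1 or 3 (0.27). Sema4g was scarce, at 0.300, 0.211 and 0.490 CPM in shEya3_KD1, 1.07, 1.15 and 0.519 CPM in shEya3_KD2 and 0.218, 0.275 and 0.313 CPM in SCR, and rose with shEya3_KD2 (1.74 ± 0.35, edgeR adjusted p = 0.001).

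Of the class 5 to 7 semaphorins, which are membrane-bound too, Sema7a and Sema6a fell with both hairpins. Sema7a, held by a lipid anchor and known as the ligand of Plxnc1, had 19.7, 19.7 and 19.4 CPM in shEya3_KD1, 16.2, 14.7 and 15.9 CPM in shEya3_KD2 and 54.3, 56.4 and 47.7 CPM in SCR. The SCR libraries lay far above both hairpins, and shEya3_KD2 lay just below shEya3_KD1. Sema7a was 2.70-fold lower in shEya3_KD1 than in SCR (log2 -1.43 ± 0.08, edgeR adjusted p = 5.97e-10) and 3.39-fold lower in shEya3_KD2 than in SCR (-1.76 ± 0.08, edgeR adjusted p = 3.74e-10). Sema6a, a ligand of plexin-A2 and plexin-A4 in the nervous system, had 0.325, 0.515 and 0.317 CPM in shEya3_KD1, 2.87, 3.99 and 3.02 CPM in shEya3_KD2 and 5.54, 7.16 and 6.18 CPM in SCR. The groups did not overlap, and the level was 16.3-fold lower in shEya3_KD1 than in SCR (-4.0 ± 0.21, edgeR adjusted p = 5.26e-10) and 1.91-fold lower in shEya3_KD2 than in SCR (-0.96 ± 0.15, edgeR adjusted p = 0.00012).

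The other 3 members tested of these classes changed less. Sema5a, with 80.5 to 91.3 CPM in shEya3_KD1, 67.4 to 98.8 CPM in shEya3_KD2 and 58.6 to 67.5 CPM in SCR, rose with shEya3_KD1 by 0.43 ± 0.12 on the log2 scale (edgeR adjusted p = 0.00819). With shEya3_KD2 its libraries overlapped those of SCR, and the call (0.35 ± 0.12, edgeR adjusted p = 0.0266) was lost without shEya3_KD2 replicate 2, which brought it to 0.19, or without SCR replicate 1 or 3. Sema6b, at 52.8 to 67.8 CPM over the 9 libraries, and Sema6c, at 1.31 to 1.76 CPM, were called in no comparison. For Sema6b the approximate 95% interval of the log2 difference was -0.34 to -0.01 in shEya3_KD1 against SCR and -0.30 to 0.03 in shEya3_KD2 against SCR. Without shEya3_KD1 replicate 1, Sema6b was called lower in shEya3_KD1 than in SCR (-0.28, edgeR adjusted p = 0.00627).

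Among the plexins, the receptors, Plxnd1 and Plxna3 rose with both hairpins and Plxnc1 fell with shEya3_KD1. Plxnd1, the receptor of Sema3e, had 28.2, 21.8 and 21 CPM in shEya3_KD1, 30.5, 37.4 and 29.8 CPM in shEya3_KD2 and 12.4, 16.2 and 14.2 CPM in SCR. The groups did not overlap, with shEya3_KD2 the highest. Plxnd1 was 1.66-fold higher in shEya3_KD1 than in SCR (log2 0.73 ± 0.13, edgeR adjusted p = 0.000502) and 2.29-fold higher in shEya3_KD2 than in SCR (1.19 ± 0.13, edgeR adjusted p = 1.44e-05). Both this receptor and its ligand Sema3e were thus higher with either hairpin, and higher with shEya3_KD2 than with shEya3_KD1.

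Plxnc1, the receptor of Sema7a, had 0.175, 0.117 and 0.288 CPM in shEya3_KD1, 2.26, 2.62 and 2.62 CPM in shEya3_KD2 and 2.47, 2.62 and 2.60 CPM in SCR. The shEya3_KD1 libraries, with 22 counts over the group, lay far below the rest, and those of shEya3_KD2 and SCR overlapped. It was 13.3-fold lower in shEya3_KD1 than in SCR (log2 -3.75 ± 0.24, edgeR adjusted p = 4.37e-09), and the difference between shEya3_KD2 and SCR was -0.04 with an approximate 95% interval of -0.34 to 0.25. Plxna3 had 10.9, 9.17 and 9.45 CPM in shEya3_KD1, 6.14, 8.39 and 5.88 CPM in shEya3_KD2 and 4.04, 5.17 and 4.33 CPM in SCR. The groups did not overlap, and it rose by 1.12 ± 0.14 on the log2 scale with shEya3_KD1 (edgeR adjusted p = 7.32e-06) and by 0.57 ± 0.14 with shEya3_KD2 (edgeR adjusted p = 0.00444).

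Plxnb2, the most abundant plexin per length and a receptor of Sema4c, had 188, 164 and 157 CPM in shEya3_KD1, 283, 316 and 258 CPM in shEya3_KD2 and 174, 205 and 186 CPM in SCR. The libraries of shEya3_KD1 and SCR overlapped, and those of shEya3_KD2 lay above both, by 0.60 ± 0.09 on the log2 scale against SCR (edgeR adjusted p = 8.52e-05). Plxna2 fell with shEya3_KD1 (-0.67 ± 0.11, edgeR adjusted p = 0.000106) and was not called with shEya3_KD2 (-0.14 ± 0.10). Plxna1, a receptor of Sema3a with Nrp1, was not called with shEya3_KD1 (-0.35 ± 0.15, edgeR adjusted p = 0.0833) or shEya3_KD2 (0.34 ± 0.15, edgeR adjusted p = 0.102). Leaving out SCR replicate 1 brought Plxna1 to -0.45 with shEya3_KD1, past the threshold. With shEya3_KD2 it passed the threshold, as higher, without shEya3_KD2 replicate 3 (0.46, edgeR adjusted p = 0.0241), without SCR replicate 2 (0.44, edgeR adjusted p = 0.0489) and with no filter (0.35, edgeR adjusted p = 0.000143). Plxnb3 had 89 counts in all and was called in no comparison.

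The hairpins were then set against each other, since they left different amounts of Eya3. In shEya3_KD2 against shEya3_KD1 17 members were higher, 11 lower and 10 not called, which is 73.7% called, beside 49.6% of all genes tested (27% higher and 22.5% lower). Past 2-fold, 5 were higher and 5 lower in shEya3_KD2, 10 in all, beside 7.25% and 5.17% and together 12.4% of all genes. Without overlap of libraries, 18 were higher and 11 lower, beside 29.5% and 24.8%. The median log2 difference of the members was 0.13 and that of all genes 0.00, and the median size regardless of sign was 0.57 and 0.31.

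By class, the 5 class 4 semaphorins tested were higher in shEya3_KD2 than in shEya3_KD1, as were 5 of 7 plexins, of which 1, Plxna3, was lower. Plxnc1 was 12.9-fold higher in shEya3_KD2 than in shEya3_KD1 (log2 3.71 ± 0.24, edgeR adjusted p = 8.03e-09), and Sema6a 8.54-fold higher (3.04 ± 0.23, edgeR adjusted p = 4.24e-08). Sema3c was 3.02-fold higher (1.60 ± 0.10, edgeR adjusted p = 5.01e-09), so that it was below SCR with both hairpins and lowest with shEya3_KD1. In the other direction, Sema3a was 10.3-fold lower in shEya3_KD2 than in shEya3_KD1 (-3.38 ± 0.09, edgeR adjusted p = 3.07e-13) and Epha7 6.60-fold lower (-2.69 ± 0.16, edgeR adjusted p = 3.84e-09). Epha5, with no counts in shEya3_KD2, was at least 21.2-fold lower there than in shEya3_KD1 by the floor of 3 counts over the group. It reached the count minimum through shEya3_KD1 alone, so the choice of members bears on this fold, which is a description. Epha5 is also among the members counted above as lower past 2-fold.

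Other differences between the hairpins were found in both ligands and receptors. Efna1 was lower in shEya3_KD2 than in shEya3_KD1 by 0.81 ± 0.08 on the log2 scale (edgeR adjusted p = 5.84e-07), and Efna3 (0.92 ± 0.12) and Efna4 (0.73 ± 0.12) were higher. Sema3b was not called (0.51 ± 0.21, edgeR adjusted p = 0.0522) and reached 0.79, past the threshold, without shEya3_KD1 replicate 1. Sema3f (-1.36 ± 0.14), Efna5 (-0.59 ± 0.09), Plxna3 (-0.55 ± 0.14), Efnb2 (-0.33 ± 0.07) and Sema7a (-0.33 ± 0.08) were lower in shEya3_KD2. Of the class 4 semaphorins, Sema4f differed by 1.84 ± 0.32, Sema4g by 1.46 ± 0.36, Sema4a by 0.94 ± 0.25, Sema4c by 0.65 ± 0.10 and Sema4b by 0.39 ± 0.07. Epha4 (0.84 ± 0.25), Sema3e (0.46 ± 0.08) and Plxnd1 (0.46 ± 0.13) were higher in shEya3_KD2 and Ephb6 (-1.38 ± 0.37) was lower. Plxnb2 (0.75 ± 0.09), Plxna1 (0.69 ± 0.15) and Plxna2 (0.53 ± 0.11) were higher. The call of Ephb3 (-0.35 ± 0.14) was lost without shEya3_KD2 replicate 1 or 3 or shEya3_KD1 replicate 1 or 3 (-0.39 to -0.20), and that of Ephb4 (0.19 ± 0.08) without shEya3_KD2 replicate 1 or 2 or shEya3_KD1 replicate 2 or 3 (0.15 to 0.20). For Epha2 the approximate 95% interval of the difference was -0.23 to 0.06, and for Ephb2 -0.13 to 0.27.

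**Figure D5:**
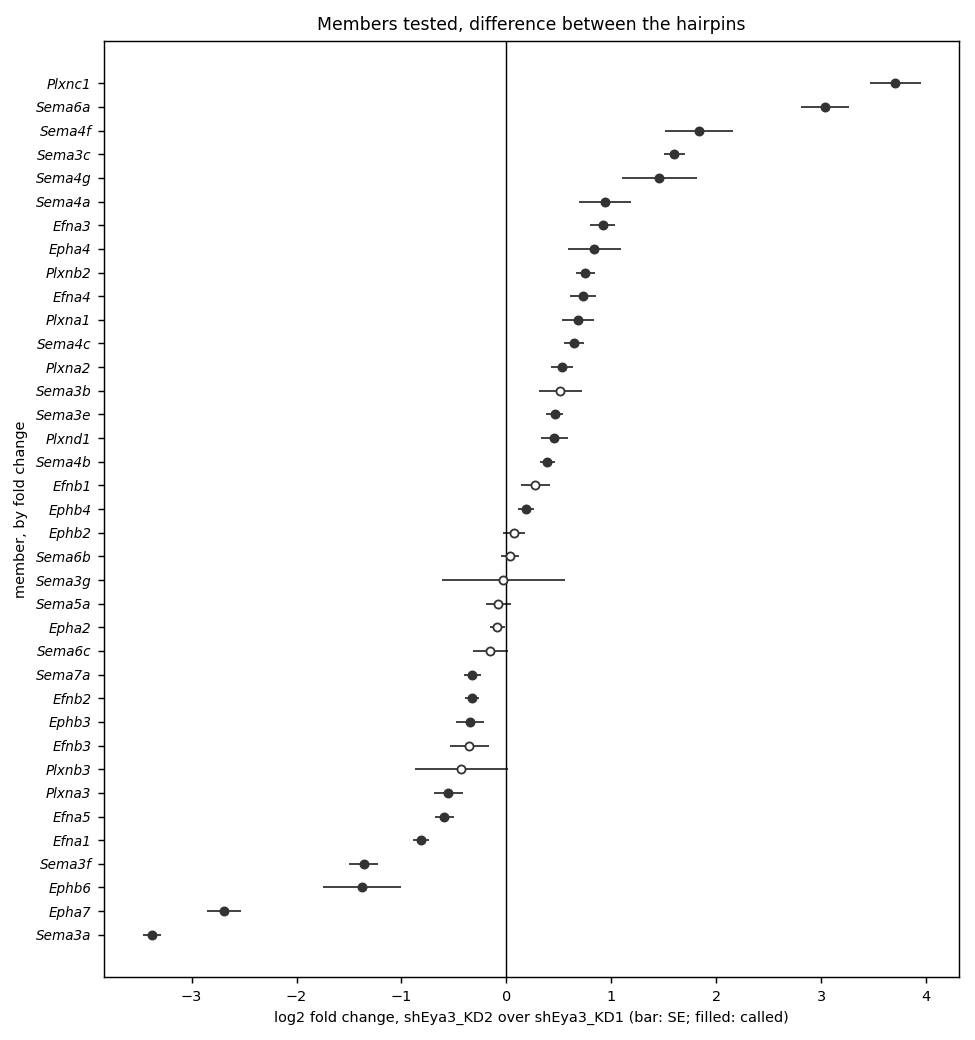
Log2 fold change of the members tested, shEya3_KD2 over shEya3_KD1 (bars: SE; filled points: called at an adjusted p of 0.05), ordered by value, without Epha5, which had no counts in shEya3_KD2. Plxnc1 (3.71) and Sema6a (3.04) are at the top and Epha7 (-2.69) and Sema3a (-3.38) at the bottom.

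Genes that act with these families were read from 3 lists. Of 25 tested partners of Eph and ephrin signalling 5 rose and 9 fell with shEya3_KD1, 10 rose and 5 fell with shEya3_KD2, and 11 were higher and 3 lower in shEya3_KD2 than in shEya3_KD1, with medians of 0.02, 0.21 and 0.20 on the log2 scale. The shares called were 56%, 60% and 56%, beside 50.3%, 45.3% and 49.6% of all genes tested. Arhgef19, an exchange factor of the ephexin family, had 0.624, 0.608 and 0.951 CPM in shEya3_KD1, 6.73, 7.76 and 5.57 CPM in shEya3_KD2 and 7.17, 8.02 and 7.19 CPM in SCR. It fell by 3.37 ± 0.18 on the log2 scale with shEya3_KD1 (edgeR adjusted p = 5.32e-10) and was not called with shEya3_KD2 (-0.17 ± 0.13). Arhgef16, of the same family, fell with shEya3_KD1 (-2.02 ± 0.12) and rose with shEya3_KD2 (0.27 ± 0.10, edgeR adjusted p = 0.0424), the second of which was lost without shEya3_KD2 replicate 1 or 2 or without any single SCR library (0.21 to 0.31). That rise was also lost with RLE size factors, DESeq2, no filter and the replicate block (0.26 to 0.29, adjusted p 0.0503 to 0.0727 by edgeR or DESeq2). Ngef, an exchange factor that binds EphA receptors, fell with shEya3_KD1 (-1.43 ± 0.23) and with shEya3_KD2 (-1.62 ± 0.24). Grip1, a scaffold protein that binds B-type ephrins, fell with shEya3_KD1 (-2.03 ± 0.22) and was not called with shEya3_KD2 (0.21 ± 0.17).

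Of 22 tested co-receptors and signalling partners of plexins and semaphorins 3 rose and 9 fell with shEya3_KD1, 9 rose and 5 fell with shEya3_KD2, and 9 were higher and 2 lower in shEya3_KD2 than in shEya3_KD1 (medians -0.09, 0.07 and 0.25). These are 54.5%, 63.6% and 50% called, beside the same 50.3%, 45.3% and 49.6% of all genes tested. Mical2, an enzyme that oxidises actin, fell with shEya3_KD1 (-1.38 ± 0.09) and with shEya3_KD2 (-0.28 ± 0.08). Rapgef2, an exchange factor for Rap GTPases, fell with shEya3_KD1 (-1.14 ± 0.10) and with shEya3_KD2 (-0.35 ± 0.10), the second of which was lost without SCR replicate 3. Micall1, a relative of the Mical enzymes, fell with shEya3_KD1 (-1.10 ± 0.08) and was not called with shEya3_KD2 (-0.18 ± 0.08). Rnd1, a small GTPase that binds plexins, had 40.5, 47.3 and 41.7 CPM in shEya3_KD1, 97.9, 85.6 and 91.2 CPM in shEya3_KD2 and 78.8, 73.1 and 77.8 CPM in SCR. It fell with shEya3_KD1 (-0.83 ± 0.08) and rose with shEya3_KD2 (0.26 ± 0.07, edgeR adjusted p = 0.0105), a rise that was lost without shEya3_KD2 replicate 1 or SCR replicate 2.

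Of 11 tested genes of the other guidance systems, the Slit, Robo, netrin and RGM families, 2 rose and 4 fell with shEya3_KD1, 3 rose and 4 fell with shEya3_KD2, and 6 were higher and 3 lower in shEya3_KD2 than in shEya3_KD1 (medians -0.02, -0.01 and 0.26). Called were 54.5%, 63.6% and 81.8% of these 11 genes, again beside 50.3%, 45.3% and 49.6% of all genes tested. Ntn1, the ligand netrin-1, had 3.65, 2.08 and 2.10 CPM in shEya3_KD1, 13.0, 16.6 and 12.4 CPM in shEya3_KD2 and 25.8, 30.3 and 25.1 CPM in SCR. It fell with shEya3_KD1 (-3.37 ± 0.19) and with shEya3_KD2 (-0.96 ± 0.16), and the groups did not overlap. Unc5d, a netrin receptor, fell with shEya3_KD1 (-2.26 ± 0.12) and with shEya3_KD2 (-0.97 ± 0.11). Slit2, a ligand of Robo receptors, fell with shEya3_KD1 (-1.86 ± 0.15) and with shEya3_KD2 (-2.85 ± 0.17). Srgap3, which acts below Robo receptors, rose with shEya3_KD1 (0.51 ± 0.11) and with shEya3_KD2 (1.03 ± 0.11).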

How the data were processed

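Per the labels' protocols, NuGEN Universal Plus mRNA-Seq libraries were made from RNA of cultured 66cl4 cells. The submitters' processing notes name STAR, FastQC, MultiQC and mm10. Which tool, annotation and strand setting were used for counting, the sources used here do not say. The authors deposited raw read counts per gene symbol, which were used as deposited. Of 55418 symbols 55341 were found in GENCODE M21, used for coordinates and exon lengths.

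The tests used edgeR 4.0.16 in R 4.3.3, with filterByExpr (minimum count 10), TMM scaling, and a single robust quasi-likelihood fit over all 9 libraries with group as the only term. Calls are at a Benjamini-Hochberg adjusted p of 0.05 over the 15914 genes tested, and each standard error is the log2 fold change divided by the square root of F. The smallest p of an exact permutation test of 3 against 3 libraries is 0.1, which is why the model across genes was used. Approximate intervals are 95% normal intervals from these standard errors. No replicates were near-copies (chi-square per degree of freedom between them 9.24 to 45.2). The fit was run on simulated counts with known changes in far fewer genes than were called here. That simulation does not test the scaling or the error rate under changes as broad as these. A group at 0 counts was set at 3 counts. Such floors cover the counting error of that group only. The counting error of the other group and the spread between libraries are left out, so these folds are not 95% limits. Promoters came from RefSeq (GRCm38.p6), with windows for 35 members outside chromosome 18, and were searched on both strands.

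Members and lists were chosen with earlier results of these data known. Values in every library are given for called members with a log2 change of at least 1 and a mean of at least 1 CPM in a compared group, and for the most abundant of each class, which gave 22. Up to 4 genes of each partner list were named by the same minimum. Sema3e and Sema4g are given in every library, and Epha5 by its counts over each group, although they fall outside this rule. These genes were chosen after their values were seen. The alternatives tried were DESeq2 1.42.0, voom in limma 3.58.1, RLE scaling, dropping the filter, requiring 5 CPM in 3 libraries, fitting the 2 groups alone, blocking on the replicate number and leaving out single libraries.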

Additional observations from a re-analysis of the deposited data

Results flagged for a closer look

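Among the members and the genes named from the partner lists, 4 stood out. They differed from SCR in opposite directions with the 2 hairpins and also differed between the hairpins. Genes outside that set did so too. The marker Cd68 was 1, and Rin1, a partner outside the naming rule, was lower with shEya3_KD1 (-0.43 ± 0.07) and higher with shEya3_KD2 (0.33 ± 0.07). Epha5 rose with shEya3_KD1 and had no counts in shEya3_KD2. By the floor of 3 counts over the group, it was at least 21.2-fold lower there than in shEya3_KD1. Epha5 reached the count minimum through shEya3_KD1 alone, which held 62 of its 75 counts. Sema4c was higher in shEya3_KD2 than in shEya3_KD1 by 0.65 ± 0.10 on the log2 scale, Arhgef16 by 2.29 ± 0.12 and Rnd1 by 1.08 ± 0.08 (edgeR adjusted p = 6.13e-05, 1.02e-09 and 2.03e-08). The comparison of shEya3_KD2 with SCR is the weaker side for each of the 4 genes: leaving out 1 library lost that call for Epha5 (1 of the libraries), Sema4c (3), Arhgef16 (5) and Rnd1 (2). For Arhgef16 it was also lost with RLE size factors, DESeq2, no filter and the replicate block (0.26 to 0.29), while the difference between the hairpins kept its call in every alternative in which the gene was tested. The shEya3_KD1 and shEya3_KD2 comparisons share their SCR libraries, and the cause of the difference was not tested.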

How the results depend on the processing

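No called difference of a member or named gene changed direction under the alternatives run. With a filter of 5 CPM in 3 libraries, which left 26 of 38 members to test, 7 members were lower in shEya3_KD2 against SCR (13 with the main filter) and 11 were higher in shEya3_KD2 against shEya3_KD1 (17 with the main filter), and apart from Ephb4 between the hairpins, which lost its call, the missing calls are members no longer tested. The other counts of calls stayed within 1.5 times their value. With 1 library left out, the number of members called was 27 to 28 for shEya3_KD1 and 24 to 29 for shEya3_KD2 against SCR, and 26 to 29 for shEya3_KD2 against shEya3_KD1. Over all 2022 values of single genes and settings, 1944 kept their side of the threshold, 52 lost it and 26 gained it. Gains among members included Plxna1 in shEya3_KD1 against SCR (4 settings other than leaving out a library, -0.35 to -0.34), Plxna1 in shEya3_KD2 against SCR with no filter (0.35) and Plxnb3 in shEya3_KD2 against SCR (-0.99). Ephb4 between the hairpins also lost its call with RLE size factors and with DESeq2 (0.17 each) and when only the groups compared were fitted (0.16). Same-numbered libraries of different groups had correlations of their deviations from -0.11 to 0.20, and differently numbered ones from -0.24 to 0.17. No pairing by replicate number was seen in these values, which are a description only. With the replicate block the members called numbered 29 for shEya3_KD1 and 30 for shEya3_KD2 against SCR, and 29 for shEya3_KD2 against shEya3_KD1, each within 1.5 times the value without it. Depth limits the scarce members: Efna2, Epha4, Epha5, Plxnb3, Plxnc1, Sema3g, Sema4f, Sema4g and Sema6d have few counts in at least 1 group. Plxnc1 had 22 counts in shEya3_KD1, where Sema6a had 46 and Sema4a 49.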
